A study of Mus musculus with 12 samples.

Results

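The acute transcriptional response of mouse embryonic fibroblasts (MEFs) to 2-hydroxyglutarate (2-HG) was examined in 6 of the 12 RNA-seq libraries of the series, the 3 libraries of MEFs exposed to 300 μM 2-HG for 24 h, 2-HG(+), and the 3 libraries of their counterparts without it, 2-HG(-). The 6 libraries are those that the sample labels assign to these groups, and no expression value was used to choose them. The MEFs had been taken from C57BL/6 embryos and had become immortal by serial passage, so that all 6 libraries describe immortalized cells without an IDH transgene. The compound was the octyl ester of (R)-2-HG, which crosses membranes. The labels describe the 2-HG(-) cells as given the solvent DMSO for the same 24 h, whereas the study's text calls them non-treated. The study's methods give experiments as run in triplicate, and no source used here says whether the libraries of a group came from separate cultures, so the p-values measure the spread between these libraries, which may be technical. The remaining 6 libraries, MEFs with a retroviral IDH2 mutant or with the empty vector, were measured in a separate table and are not compared here.

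2-HG is a metabolite that cancer-associated forms of the isocitrate dehydrogenases IDH1 and IDH2 make from 2-oxoglutarate. It resembles 2-oxoglutarate and can compete with it in dioxygenases that use it to demethylate DNA and histones, such as the TET enzymes and the JmjC histone demethylases. The hydroxylases that mature collagen and the prolyl hydroxylases that mark HIF1α for degradation use 2-oxoglutarate too, and whether 2-HG inhibits or stimulates the latter is debated. Cells read the state of their amino acid supply through the kinases that phosphorylate the initiation factor eIF2α, which favours translation of the transcription factor ATF4. ATF4 and its partners bind the C/EBP-ATF response element (CARE) of genes for amino acid uptake, amino acid synthesis and tRNA charging. Fibroblasts also keep up a basal interferon tone, in which a complex that contains STAT2 and IRF9, and the factor IRF7, hold antiviral genes at a low but measurable level through the interferon-stimulated response element (ISRE).

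Reads came from an Ion AmpliSeq panel, in which 1 short target per transcript is amplified, and levels are given in RPM, the reads on a gene scaled to the same total in every library. A level can therefore be compared between libraries but not between genes. The libraries are named 2-HG(-)_1 to 2-HG(-)_3 and 2-HG(+)_1 to 2-HG(+)_3, and values are listed in that order. They held between 14959318 and 18363768 reads, and 3 reads, taken as the limit of detection, correspond to between 0.163 and 0.201 RPM. The first principal component held 71.2% of the variance and separated the groups, while the second (14.4%) set 2-HG(+)_1 (-18.25) and 2-HG(-)_2 (-14.81) apart from the other libraries. Fibroblast markers added up to between 21646 and 23290 RPM in 2-HG(-) and between 15256 and 16280 RPM in 2-HG(+), and 9 of the 12 could be tested, with 1 higher and 5 lower. Every epithelial, endothelial and muscle marker of the lists was under 1 RPM, the leukocyte marker Ptprc was at 0 in each library, and the summed macrophage markers lay between 22.2 and 27.1 RPM in all 6 libraries. Of 7 adipocyte markers, 5 were under 1 RPM (Adipoq and Plin1 at 0), Fabp4 was lower and Pparg higher (log2FC -1.02 and 0.90), and the sum was 6.48 to 11.11 RPM in 2-HG(-) and 5.55 to 7.22 RPM in 2-HG(+). Of 8 neural and glial markers, 5 were under 1 RPM (Snap25 and Elavl3 at 0), Tubb3 and Nes were higher and Map2 was lower (log2FC 1.51, 0.73 and -0.93), and the sum was 39.69 to 48.26 RPM in 2-HG(-) and 59.23 to 63.97 RPM in 2-HG(+). The part of such cells in the results was not tested. In total RNA of a culture, fewer cells with a transcript and less of the transcript per cell cannot be told apart, and RPM gives each transcript only as a share of the library.

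Exposure to 2-HG for 24 h moved about as many genes up as down. The test covered the 10384 genes whose mean over the 6 libraries reached 1 RPM. Of these, 1668 (16.1%) passed it as higher in 2-HG(+) and 1737 (16.7%) as lower, by limma's moderated test on log2(RPM + 1) with Benjamini-Hochberg adjustment at 0.05. In what follows log2FC is the log2 fold change of RPM + 1, 2-HG(+) over 2-HG(-), and folds without that name are ratios of mean RPM. For genes at low levels, the added 1 makes log2FC smaller in size than the ratio of mean RPM, and ranks by log2FC depend on it. A further 13546 table entries lay under 1 RPM and were not tested. The 3 libraries of 2-HG(+) lay entirely above those of 2-HG(-) for 2306 genes (22.2%) and entirely below for 2501 (24.1%). Large changes leaned towards falls, with 392 genes lower and 228 higher by more than 1 on the log2 scale, and 63 lower and 20 higher by more than 2. Many of the calls were small on the scale of log2FC. For 1502 of the 3405 called genes the change in RPM + 1, rather than in mean RPM, was less than 1.5-fold. The median change of all tested genes was -0.021.

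**Figure D1:**
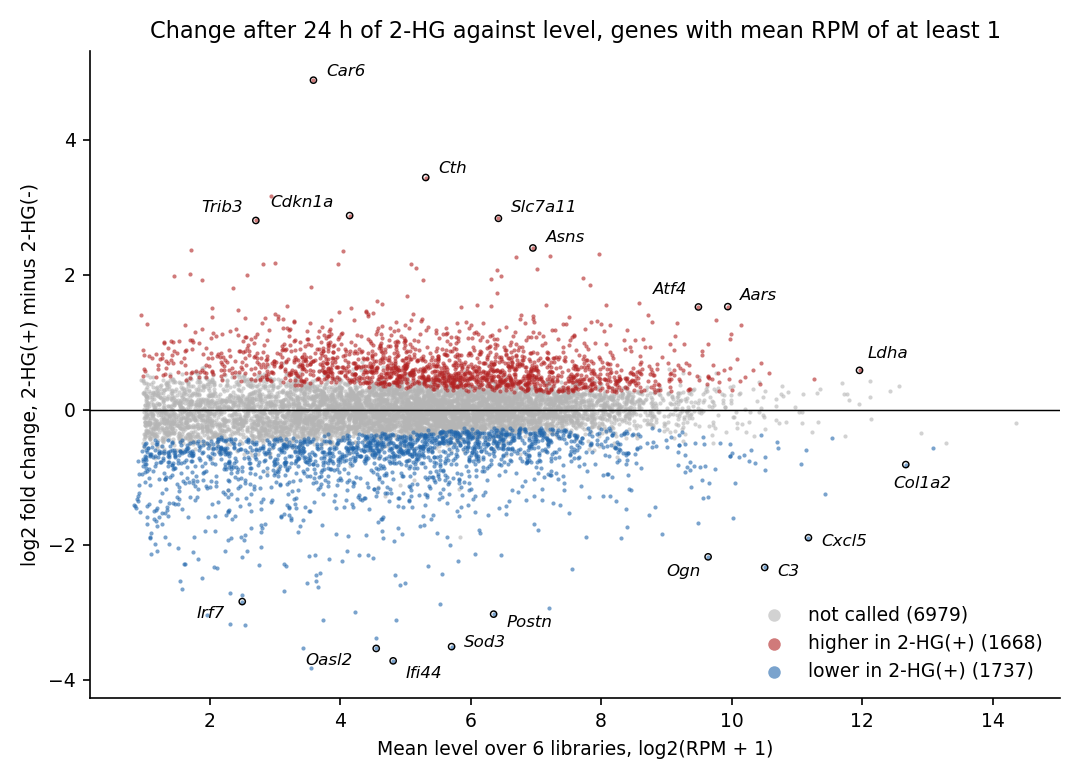
Each point is 1 of the 10384 tested genes, placed by its mean log2(RPM + 1) over the 6 libraries (horizontal axis) and its log2 fold change in 2-HG(+) (vertical axis). Red points are the 1668 genes called higher, blue points the 1737 called lower and grey points the genes not called. Circled names are genes described in the text, and the called genes spread over the whole range of levels.

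The rises included Atf4 and many of the genes that handle amino acids. Atf4, on chromosome 15 from 80255184 to 80257541 of GRCm38, stood at 399, 533 and 358 RPM in 2-HG(-) and 1250.4, 1189 and 1218 RPM in 2-HG(+). The 2-HG(+) libraries were close to each other and all far above the highest 2-HG(-) library (log2FC 1.52, SE 0.14, limma adjusted p = 5.6e-05). Among 21 tested members of a list of integrated stress response regulators, 14 were higher and 1 was lower (median log2FC 0.91), against the 16.1% and 16.7% of all genes, and 2 were lower without 2-HG(+)_2. The other listed member, Gdf15, did not exceed 0.327 RPM. Of the eIF2α kinases, the double-stranded RNA sensor PKR (Eif2ak2), itself an interferon-induced gene, was the only called member and the list's only fall, with 56.7, 60.4 and 60.3 RPM in 2-HG(-) and 32.5, 33.4 and 38.6 RPM in 2-HG(+). All 3 values in 2-HG(+) lay below those in 2-HG(-) (log2FC -0.75, SE 0.11, limma adjusted p = 0.00072). The ER stress kinase PERK (Eif2ak3) did not pass the threshold (log2FC -0.41, limma adjusted p = 0.069).

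Several transcription factors and effectors downstream of ATF4 rose, some with larger and some with smaller folds than Atf4 itself. CHOP (Ddit3), an ATF4 target that acts in prolonged stress, rose from 44.2 ± 10.6 to 176 ± 7.67 RPM (SD, n = 3 each). Atf3, another stress-induced bZIP factor, had 6.10, 6.75 and 6.12 RPM in 2-HG(-) and 30.7, 39.0 and 40.5 RPM in 2-HG(+). Neither gene overlapped between the groups, and the log2FC values were 1.99 and 2.36 (limma adjusted p = 1.6e-05 and 4.1e-06). Trib3, a pseudokinase that feeds back on ATF4, stood at 2.29, 0.936 and 1.38 RPM in 2-HG(-) and 14.1, 18.6 and 16.3 RPM in 2-HG(+), so that a low level rose 10.7-fold (log2FC 2.80, SE 0.20, limma adjusted p = 1.3e-05). Chac1, which breaks down glutathione, had 20.7, 10.9 and 15.1 RPM in 2-HG(-) and 75.4, 64.2 and 73.9 RPM in 2-HG(+) (log2FC 2.16, SE 0.20, limma adjusted p = 5e-05). The hormone gene Fgf21, a secreted signal of amino acid shortage, lay at 0.218, 0.735 and 0.420 RPM in 2-HG(-), close to the limit of detection, and at 5.95, 7.28 and 6.14 RPM in 2-HG(+) (log2FC 2.37, SE 0.17, limma adjusted p = 1.3e-05). The translation repressor 4E-BP1 (Eif4ebp1), which blocks the cap-binding factor, also rose (log2FC 1.56, SE 0.12, limma adjusted p = 1.9e-05), as did Ppp1r15a, which brings the eIF2α phosphatase to its substrate (log2FC 1.16, SE 0.19, limma adjusted p = 0.0016). The lipoprotein receptor gene Vldlr had 4.68, 6.48 and 4.80 RPM in 2-HG(-) and 26.2, 19.5 and 18.2 RPM in 2-HG(+) (log2FC 1.81, SE 0.18, limma adjusted p = 7.4e-05).

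The aminoacyl-tRNA synthetases, the enzymes that load amino acids onto tRNAs, rose almost as a block. Of 20 cytosolic members, all above 1 RPM, 19 were higher and 0 were lower, with a median log2FC of 1.08 and 2-HG(+) entirely above in 19, against 16.1% of all genes called higher and 22.2% entirely above. Aars, which charges alanine, lies on chromosome 8 from 111033144 to 111057664 and had 495, 635 and 615 RPM in 2-HG(-) and 1918, 1718 and 1408 RPM in 2-HG(+). The groups did not overlap (log2FC 1.53, SE 0.14, limma adjusted p = 5.6e-05). Gars, for glycine, rose most by fold of the 20, from 220.2 ± 8.76 to 664 ± 19.2 RPM (SD, n = 3 each) (log2FC 1.59, limma adjusted p = 2.6e-06). Sars, for serine, rose with a log2FC of 1.12 (limma adjusted p = 3.9e-05). Qars, for glutamine, was the exception, with 91.9, 106 and 117 RPM in 2-HG(-) and 95.8, 94.6 and 104 RPM in 2-HG(+), values that overlap (log2FC -0.09, 95% confidence interval -0.34 to 0.16, limma adjusted p = 0.58).

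Enzymes that make amino acids and carry their 1-carbon units followed the same direction. Of 19 tested genes for serine, glycine, 1-carbon, proline and asparagine synthesis, 14 were higher, against 16.1% of all genes, and 0 lower (median 1.09), while 2 further listed genes were under 1 RPM. Asns, asparagine synthetase, on chromosome 6 from 7675169 to 7693254, went from 58.6, 47.9 and 53.3 RPM in 2-HG(-) to 244, 301 and 311 RPM in 2-HG(+), 5.36 times the mean level of the controls (log2FC 2.40, SE 0.12, limma adjusted p = 1.9e-06). In the serine branch, Psph, which removes the last phosphate, and Psat1, the preceding aminotransferase, rose with log2FC 2.27 and 1.40 (limma adjusted p = 1.6e-06 and 9.7e-06). Of the mitochondrial folate enzymes, Mthfd2l did not pass the threshold (log2FC 0.32, limma adjusted p = 0.051), while Mthfd1l (log2FC 1.09, limma adjusted p = 7e-05), Shmt2, Mthfd2 and Aldh1l2 rose. Shmt2 went from 19.2 ± 4.48 to 75.2 ± 12.6 RPM (SD, n = 3 each), Mthfd2 from 62.0 ± 4.73 to 268 ± 28.5 RPM (SD, n = 3 each), and Aldh1l2 from 46.2 ± 2.87 to 228 ± 41.8 RPM (SD, n = 3 each), with limma adjusted p = 7.1e-05, 2.2e-06 and 4.4e-06. The transaminase gene Gpt2, which makes alanine from pyruvate, also rose (log2FC 1.68, SE 0.15, limma adjusted p = 4e-05).

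Amino acid transporters moved in both directions. Of 19 tested, 7 were higher and 4 lower, against 16.1% and 16.7% of all genes (median 0.20, and 0.09 without 2-HG(-)_2 or 0.06 without 2-HG(+)_3). Slc7a11, the cystine/glutamate exchanger, rose from 25.6, 35.3 and 33.5 to 235, 254 and 201 RPM, 7.30 times its level in 2-HG(-) (log2FC 2.83, SE 0.14, limma adjusted p = 1.7e-06). Slc7a5, the light chain of the LAT1 exchanger for large neutral amino acids, went from 128, 104 and 103 to 507, 583 and 579 RPM (log2FC 2.31, SE 0.11, limma adjusted p = 1.6e-06), and its heavy chain Slc3a2 rose less (log2FC 0.71, SE 0.11, limma adjusted p = 0.0011). Slc7a1, a cationic amino acid transporter, and Slc6a9, a glycine transporter, rose with log2FC 1.93 and 1.73 (limma adjusted p = 6.5e-06 and 1.1e-05). In the other direction, the glutamate importer Slc1a3 fell from 389, 417 and 444 to 121, 106 and 110.4 RPM, 3.70 times lower than in the controls (log2FC -1.88, SE 0.10, limma adjusted p = 2e-06). The cationic transporter Slc7a2 (log2FC -1.14, SE 0.13, limma adjusted p = 0.00016) and the neutral amino acid transporter Slc38a2 (log2FC -0.50, SE 0.10, limma adjusted p = 0.004) fell as well. The closely related Slc7a1 and Slc7a2 thus moved in opposite directions, with no overlap between the groups in either.

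In the transsulfuration branch, Cth, which splits cystathionine to yield cysteine, had 10.2, 12.3 and 10.8 RPM in 2-HG(-) and 123, 129.6 and 138 RPM in 2-HG(+). The groups lay far apart, and the log2FC of 3.44 (SE 0.11, limma adjusted p = 2.4e-07) was exceeded by that of Car6 alone. Of 17 tested genes of the transsulfuration and glutathione list, 5 were higher and 8 lower (median -0.38), against 16.1% and 16.7% of all genes. Without 2-HG(-)_3 or 2-HG(+)_2, 3 were higher, a share near that of all genes, and without 2-HG(+)_2 the median was -0.12. Glutathione reductase (Gsr) rose (log2FC 1.06, SE 0.16, limma adjusted p = 0.001), while several transferases that attach glutathione fell. Gstm1 went from 748 ± 91.8 to 273 ± 26.6 RPM (SD, n = 3 each) and Gstt1 from 28.5 ± 7.19 to 7.32 ± 2.32 RPM (SD, n = 3 each) (log2FC -1.45 and -1.83, limma adjusted p = 2.8e-05 and 0.00029). Gstm genes resemble each other, so the share of reads given to Gstm1 alone is uncertain.

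**Figure D2:**
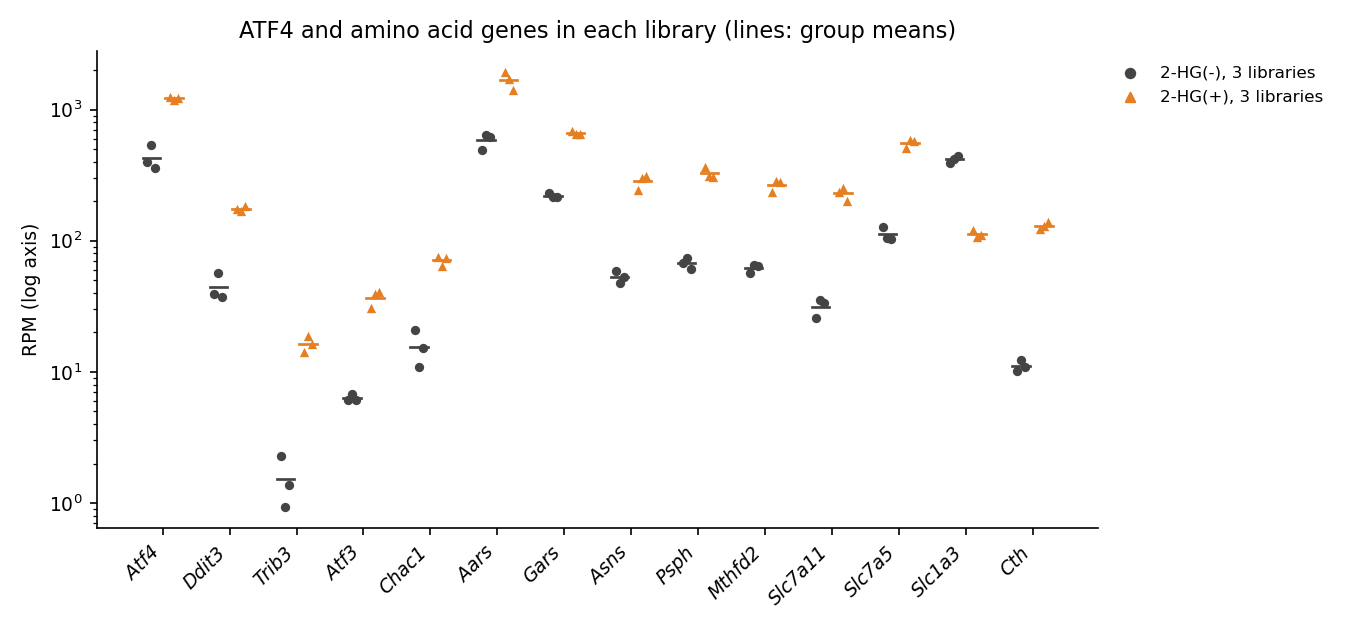
RPM (vertical log axis) of 14 genes of ATF4 signalling and amino acid handling in each 2-HG(-) library (grey circles) and each 2-HG(+) library (orange triangles), with short lines for the group means. The orange triangles lie above the grey circles for every gene drawn but Slc1a3, which fell from a mean of 416 to 113 RPM.

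The CARE letters were searched as TGATGNAA on both strands of RefSeq promoter windows, each 300 bases long from 250 bases before to 50 after a start site (build GRCm38.p6). Windows were matched to 8279 tested genes, and since 2 of them share 1 RefSeq entry, 8278 were counted. Of these, 222 (2.68%) held the letters. They were found in 6 of 19 stress response regulators (31.6%), 5 of 13 synthetases (38.5%) and 3 of 15 synthesis enzymes (20%). Of all genes called higher and lower, 3.65% and 3.12% held them. Stretches around the match are shown for 6 genes that rose, with the matched letters in capitals, because they cover the regulators, the charging enzymes and the synthesis enzymes described above. They lie at chr1:191183412-191183467 (minus strand), chr2:119351025-119351080 (plus), chr8:111033706-111033761 (plus), chr6:7693201-7693256 (minus), chr11:120643820-120643875 (minus) and chr19:43524676-43524731 (minus), and are written along the strand of the gene.
Atf3: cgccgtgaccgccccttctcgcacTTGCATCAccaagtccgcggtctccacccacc
Chac1: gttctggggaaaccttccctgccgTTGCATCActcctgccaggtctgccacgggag
Aars: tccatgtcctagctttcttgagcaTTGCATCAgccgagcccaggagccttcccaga
Asns: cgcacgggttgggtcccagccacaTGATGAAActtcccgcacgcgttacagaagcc
Pycr1: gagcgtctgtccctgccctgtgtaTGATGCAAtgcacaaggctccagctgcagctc
Got1: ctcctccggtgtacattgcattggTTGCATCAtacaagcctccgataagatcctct
The forward letters stand in Asns and Pycr1 and the reverse complement in the remaining genes. Pycr1, which closes the proline ring, and Got1, an aspartate aminotransferase, rose with log2FC 1.13 and 0.77 (limma adjusted p = 0.0012 and 0.002). A match of letters is a description and no binding was measured here.

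The falls included the tested interferon-stimulated genes. Of a list of 46 antiviral genes, 36 were tested, and all 36 were lower in 2-HG(+), against 16.7% of all genes, with a median log2FC of -1.47. A further 6 were under 1 RPM and 4 were not in the table. Since a gene can enter the test on its level in 2-HG(-) alone, this count describes the tested genes only. The mean level of the 36 genes, on the log2(RPM + 1) scale, lay between 4.56 and 4.62 in the 2-HG(-) libraries and between 2.93 and 2.99 in the 2-HG(+) libraries. With a filter at 10 RPM fewer of them were tested and 23 were called.

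Ifi44, which restrains cell growth during an antiviral response, is on chromosome 3 from 151730922 to 151749960 and had 100.0, 104 and 98.6 RPM in 2-HG(-) and 8.53, 5.53 and 6.47 RPM in 2-HG(+). Its level in 2-HG(-) was 14.8 times that in 2-HG(+) (log2FC -3.72, SE 0.15, limma adjusted p = 5.6e-07). Ifit1, which binds foreign RNA caps, had 65.6, 88.3 and 70.6 RPM in 2-HG(-) and 6.61, 5.89 and 6.21 RPM in 2-HG(+), and the groups were separated by a wide gap (log2FC -3.38, SE 0.14, limma adjusted p = 6e-07). Oasl2, a relative of the oligoadenylate synthetases, fell from 79.1 ± 6.02 to 5.92 ± 0.769 RPM (SD, n = 3 each) (log2FC -3.54, SE 0.13, limma adjusted p = 3.8e-07), although reads of related Oas genes may be shared. Zbp1, a sensor of Z-form nucleic acids, fell from 39.9, 37.4 and 37.2 to 3.17, 3.67 and 3.72 RPM (log2FC -3.12, SE 0.12, limma adjusted p = 5.6e-07). Each of these 4 genes was at a low remainder after 2-HG. Rtp4, an interferon-induced membrane trafficking factor, was 131, 123 and 121 RPM in 2-HG(-) and 16.1, 15.7 and 16.5 RPM in 2-HG(+), with little spread in either group (log2FC -2.88, SE 0.10, limma adjusted p = 2.7e-07). The deISGylase Usp18, which also limits receptor signalling, went from 8.33, 9.29 and 5.94 to 0.264, 0.481 and 0.980 RPM (log2FC -2.50, SE 0.21, limma adjusted p = 3.4e-05). The sensors of viral RNA RIG-I (Ddx58) and MDA5 (Ifih1) fell with log2FC -1.08 and -0.87 (limma adjusted p = 0.00015 and 0.0015). The smallest fall of the list was that of Ifit2, with 26.0, 21.5 and 22.3 RPM in 2-HG(-) and 15.5, 16.4 and 19.1 RPM in 2-HG(+) (log2FC -0.43, SE 0.13, limma adjusted p = 0.033). It was no longer called without 2-HG(-)_1 (log2FC -0.35), 2-HG(-)_3 (-0.46), 2-HG(+)_1 (-0.37) or 2-HG(+)_2 (-0.41), where the limma adjusted p was between 0.071 and 0.12.

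The genes that carry the interferon signal fell unequally. Of 19 tested receptors, kinases, STAT and IRF genes and nucleic acid sensors, 10 were lower and 1 was higher (median -0.49), against 16.7% and 16.1% of all genes. Irf7, the factor that amplifies the response and is itself induced by it, on chromosome 7 from 141262706 to 141266481, stood at 15.2, 12.8 and 14.6 RPM in 2-HG(-) and 0.926, 1.32 and 1.11 RPM in 2-HG(+), 12.7 times lower after 2-HG (log2FC -2.84, SE 0.14, limma adjusted p = 1.9e-06). Irf9, the DNA-binding part of its complex with STAT2, had 57.2, 39.9 and 47.1 RPM in 2-HG(-) and 8.59, 9.56 and 10.7 RPM in 2-HG(+) (log2FC -2.20, SE 0.15, limma adjusted p = 1e-05). Stat2, which brings the activation domain, had 17.2, 16.4 and 18.0 RPM in 2-HG(-) and 4.17, 6.31 and 6.93 RPM in 2-HG(+) (log2FC -1.44, SE 0.17, limma adjusted p = 0.00026). Neither overlapped between the groups. Upstream of them, the receptor chain Ifnar1 fell by much less (log2FC -0.49, SE 0.11, limma adjusted p = 0.0088) and the kinase Tbk1 did not pass the threshold (log2FC -0.17, 95% confidence interval -0.41 to 0.08, limma adjusted p = 0.27). The adaptor STING (Tmem173) fell (log2FC -0.48, SE 0.10, limma adjusted p = 0.0047), while the DNA sensor cGAS (Mb21d1), which acts before it, rose from 4.19, 7.62 and 4.44 to 11.8, 10.7 and 10.7 RPM (log2FC 0.95, SE 0.20, limma adjusted p = 0.0053). The calls of Mb21d1 and Ifnar1 were lost in an unmoderated per-gene test. The interferon gene Ifnb1 did not exceed 0.42 RPM in any library.

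The interferon-inducible GTPases, which attack the vacuoles of intracellular parasites, fell with the antiviral genes. All 8 tested were lower, with a median of -1.86 and 2-HG(+) entirely below, against 16.7% of all genes called lower and 24.1% entirely below. Of the other members of this list of 17, 1 was under 1 RPM and 8 were not in the table. Gbp2 stood at 191, 232 and 254 RPM in 2-HG(-) and 68.5, 69.7 and 66.8 RPM in 2-HG(+) (log2FC -1.70, SE 0.12, limma adjusted p = 9.1e-06). Gbp7 stood at 28.2, 26.8 and 31.7 RPM in 2-HG(-) and 4.23, 3.61 and 4.64 RPM in 2-HG(+) (log2FC -2.54, SE 0.14, limma adjusted p = 2.4e-06). Igtp, of the immunity-related GTPases, stood at 23.8, 25.1 and 25.4 RPM in 2-HG(-) and 5.02, 4.57 and 4.90 RPM in 2-HG(+) (log2FC -2.14, SE 0.12, limma adjusted p = 3.1e-06). In each the 2-HG(+) libraries lay close together and well below the others. Gbp genes are near copies of each other, so their reads are uncertain as those of single genes.

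Most tested genes for antigen presentation by MHC class I fell too, and the size of their falls was not tested against the lists above. Of 13 tested genes, 12 were lower, against 16.7% of all genes, 0 were higher and the median was -0.91. The light chain B2m went from 1644, 1594 and 1566 to 912, 1040.1 and 893 RPM (log2FC -0.76, SE 0.10, limma adjusted p = 0.00046), and the classical heavy chain H2-K1 fell from 245 ± 19.7 to 149 ± 14.0 RPM (SD, n = 3 each) (log2FC -0.72, SE 0.11, limma adjusted p = 0.00085), with the reservation that H2 genes share sequence. Among the genes of peptide supply and loading, tapasin (Tapbp) went from 1376, 1105 and 1105 to 474, 469.5 and 498 RPM (log2FC -1.31, SE 0.11, limma adjusted p = 3.4e-05), the peptide transporter Tap1 fell (log2FC -1.40, limma adjusted p = 6.7e-05) and so did the immunoproteasome subunit Psmb8 (log2FC -1.70, limma adjusted p = 5.2e-05). Tap2, the partner of Tap1, had a log2FC of -0.81, limma adjusted p = 0.0012, close to that of B2m. H2-M3, which presents formylated peptides, was the member not called (log2FC -0.42, limma adjusted p = 0.056).

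Most tested genes for secreted immune factors fell. Of 19 tested chemokine and complement genes, 16 were lower and 1 was higher (median -1.19), against 16.7% and 16.1% of all genes. Of the other members of this list of 33, 10 were under 1 RPM and the rest were not in the table. Complement component C3, on chromosome 17 from 57203970 to 57228136, went from 2922, 3942 and 3032 to 719, 586 and 642 RPM, a mean 5.08 times lower (log2FC -2.34, SE 0.14, limma adjusted p = 4.1e-06). The neutrophil chemokine Cxcl5 fell from 4605, 4585 and 4216 to 1114, 1256 and 1235 RPM (log2FC -1.89, SE 0.11, limma adjusted p = 3e-06). The T cell chemokine Ccl5 went from 925 ± 69.6 to 258 ± 12.5 RPM (SD, n = 3 each) (log2FC -1.83, SE 0.10, limma adjusted p = 2.2e-06), and the acute phase genes Saa3 and Lcn2 fell with log2FC -2.32 and -1.47 (limma adjusted p = 4e-06 and 6.2e-06). Ccl2, a monocyte chemokine, had 346, 389.9 and 293 RPM in 2-HG(-) and 210.4, 286 and 294 RPM in 2-HG(+), groups that overlap (log2FC -0.38, limma adjusted p = 0.079). The exception in direction was the cytokine Lif, which signals through gp130 and STAT3, with 17.9, 28.6 and 23.1 RPM in 2-HG(-) and 66.6, 55.1 and 54.4 RPM in 2-HG(+) (log2FC 1.32, SE 0.17, limma adjusted p = 0.00035).

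**Figure D3:**
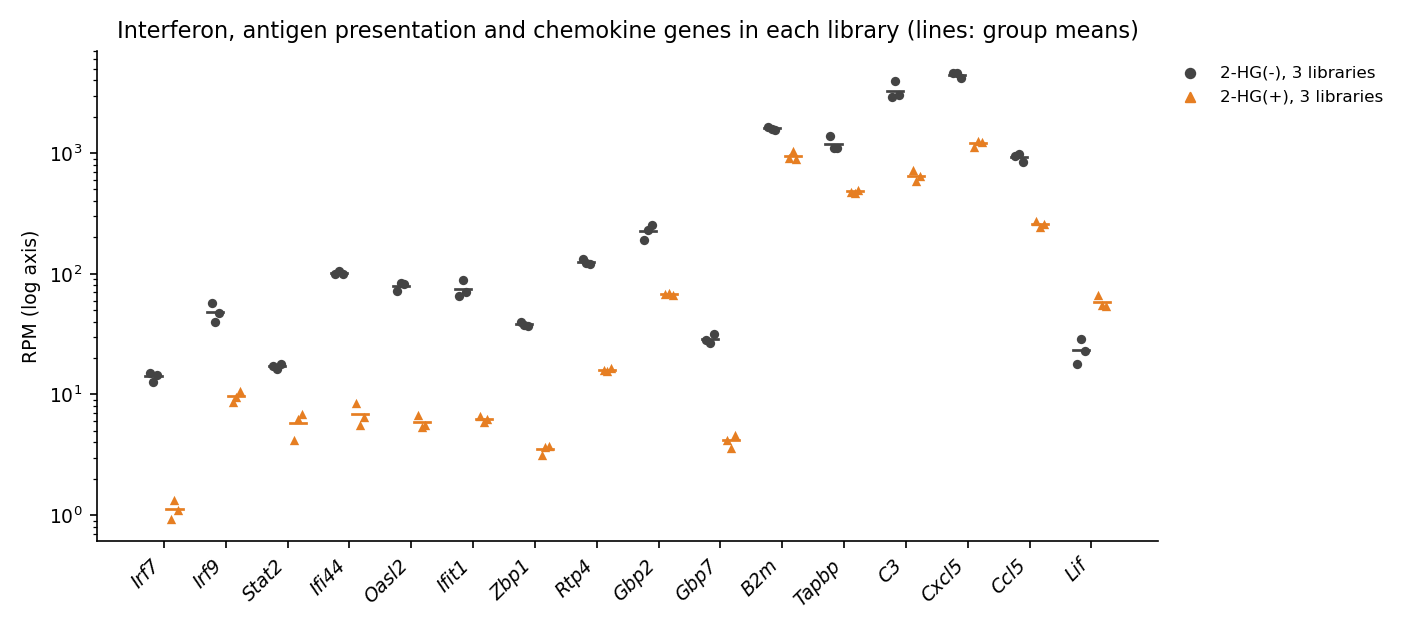
RPM (vertical log axis) of 16 genes of interferon signalling, antiviral defence, antigen presentation and secreted immune factors in each 2-HG(-) library (grey circles) and each 2-HG(+) library (orange triangles), with short lines for the group means. The groups do not overlap for any gene drawn, and Lif is the gene whose triangles lie above, with 54.4 RPM in the lowest 2-HG(+) library against 28.6 RPM in the highest 2-HG(-) library.

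The ISRE letters, searched as GAAA, any 2 bases and GAAA on both strands of the same windows, were held by 302 of 8278 tested genes (3.65%). They were found in 9 of 25 antiviral genes with a window (36.0%), in 6 of 6 GTPase genes (100%) and in 4 of 12 MHC class I genes (33.3%). Among all genes called lower the share was 7.2%, and among those called higher 3.43%. Stretches are shown for 6 genes that fell, from each of these groups, at chr19:34640761-34640818 (plus strand), chr12:26456539-26456596 (minus), chr8:71537569-71537626 (minus), chr3:142620580-142620637 (plus), chr11:58199498-58199555 (plus) and chr2:122147524-122147581 (plus). Capitals mark the letters in either orientation.
Ifit1: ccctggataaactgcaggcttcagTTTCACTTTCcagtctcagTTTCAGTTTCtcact
Rsad2: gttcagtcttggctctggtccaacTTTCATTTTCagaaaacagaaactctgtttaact
Bst2: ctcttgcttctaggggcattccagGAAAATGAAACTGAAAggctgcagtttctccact
Gbp2: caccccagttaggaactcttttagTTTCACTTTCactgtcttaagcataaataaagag
Igtp: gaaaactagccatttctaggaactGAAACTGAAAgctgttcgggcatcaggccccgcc
B2m: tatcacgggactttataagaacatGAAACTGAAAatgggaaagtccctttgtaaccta
Ifit1 held a pair of matches, and in Bst2 overlapping matches form 1 run. Rsad2, the antiviral enzyme viperin, fell from 4.96, 6.02 and 5.52 to 0.926, 0.722 and 0.653 RPM (log2FC -1.88, SE 0.15, limma adjusted p = 2e-05), and Bst2, which tethers virus particles to the cell, from 111, 116 and 113 to 38.8, 37.8 and 39.9 RPM (log2FC -1.52, SE 0.09, limma adjusted p = 4.4e-06).

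Genes for DNA replication and mitosis were mostly higher, by moderate amounts. Of 40 tested genes of replication and the G1/S transition, 36 were higher, against 16.1% of all genes, and 0 lower, with a median log2FC of 0.78 and a range from 0.03 to 1.51. Of 40 tested mitosis and chromosome segregation genes, 35 were higher and 0 lower (median 0.70, range 0.22 to 1.25). The mean level of the replication list, in log2(RPM + 1), lay between 4.36 and 4.42 in 2-HG(-) and between 5.11 and 5.29 in 2-HG(+). The G1/S cyclin Ccne2 had 11.2, 9.16 and 8.71 RPM in 2-HG(-) and 28.5, 29.8 and 29.5 RPM in 2-HG(+), the largest change of that list (log2FC 1.51, SE 0.13, limma adjusted p = 3.4e-05). Rrm2, the subunit that limits ribonucleotide reductase, went from 73.2, 64.2 and 63.7 to 161, 177 and 175 RPM (log2FC 1.34, SE 0.10, limma adjusted p = 1.4e-05), and Mcm3, part of the replicative helicase, from 27.1, 22.2 and 27.9 to 51.1, 66.0 and 67.5 RPM (log2FC 1.22, SE 0.14, limma adjusted p = 0.00021). Chaf1b, which loads histones behind the fork, rose with a log2FC of 1.33 (limma adjusted p = 3.4e-05). The regulator E2f1 itself was not called (log2FC 0.14, 95% confidence interval -0.12 to 0.39, limma adjusted p = 0.38).

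For mitosis, the kinase Aurka had 42.3, 46.9 and 34.0 RPM in 2-HG(-) and 92.9, 104 and 99.2 RPM in 2-HG(+) (log2FC 1.25, SE 0.13, limma adjusted p = 9.7e-05). Cyclin A2 (Ccna2), which acts in S phase and G2, had 171, 178 and 160.5 RPM in 2-HG(-) and 342, 338 and 332 RPM in 2-HG(+) (log2FC 0.99, SE 0.09, limma adjusted p = 4.4e-05). Its partner kinase Cdk1 rose from 73.6 ± 12.1 to 144 ± 9.24 RPM (SD, n = 3 each) (log2FC 0.97, SE 0.13, limma adjusted p = 0.00045) and the spindle checkpoint kinase Bub1 from 8.77 ± 1.15 to 19.9 ± 1.63 RPM (SD, n = 3 each) (log2FC 1.10, SE 0.14, limma adjusted p = 0.00034). Cyclin B2 (Ccnb2) and the kinetochore gene Cenpf did not pass the threshold (log2FC 0.22 and 0.24, limma adjusted p = 0.22 and 0.24). E2F letters (TTTCCCGC or TTTGGCGC) stood in 11 of 31 replication promoters with a window (35.5%), against 3.73% of all tested genes. The cell cycle homology letters TTTGAA, short and common, stood in 25 of 33 mitosis promoters (75.8%) against 13.9%.

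The inhibitor p21 (Cdkn1a), which holds back cyclin-dependent kinases, rose at the same time, and unevenly. It stood at 5.66, 6.15 and 4.86 RPM in 2-HG(-) and 113, 30.0 and 30.3 RPM in 2-HG(+), so that 2-HG(+)_1 was well above the other two and all were above 2-HG(-). The log2FC was 2.88 (SE 0.42, limma adjusted p = 0.00082) and 2.25 without that library (limma adjusted p = 1.2e-05). Of 27 tested p53 target genes, 9 were higher and 4 lower (median 0.22), against 16.1% and 16.7% of all genes. Other p53 targets moved less and in both directions. Gadd45a, a DNA damage and stress gene that ATF4 also induces, went from 114, 124 and 99.9 to 315, 289 and 274 RPM (log2FC 1.37, SE 0.11, limma adjusted p = 2.1e-05), and the death receptor Fas fell from 35.3, 43.8 and 37.6 to 17.5, 15.8 and 14.6 RPM (log2FC -1.23, SE 0.13, limma adjusted p = 0.00011). Trp53 itself was not called (log2FC 0.22, 95% confidence interval -0.06 to 0.50, limma adjusted p = 0.21).

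**Figure D4:**
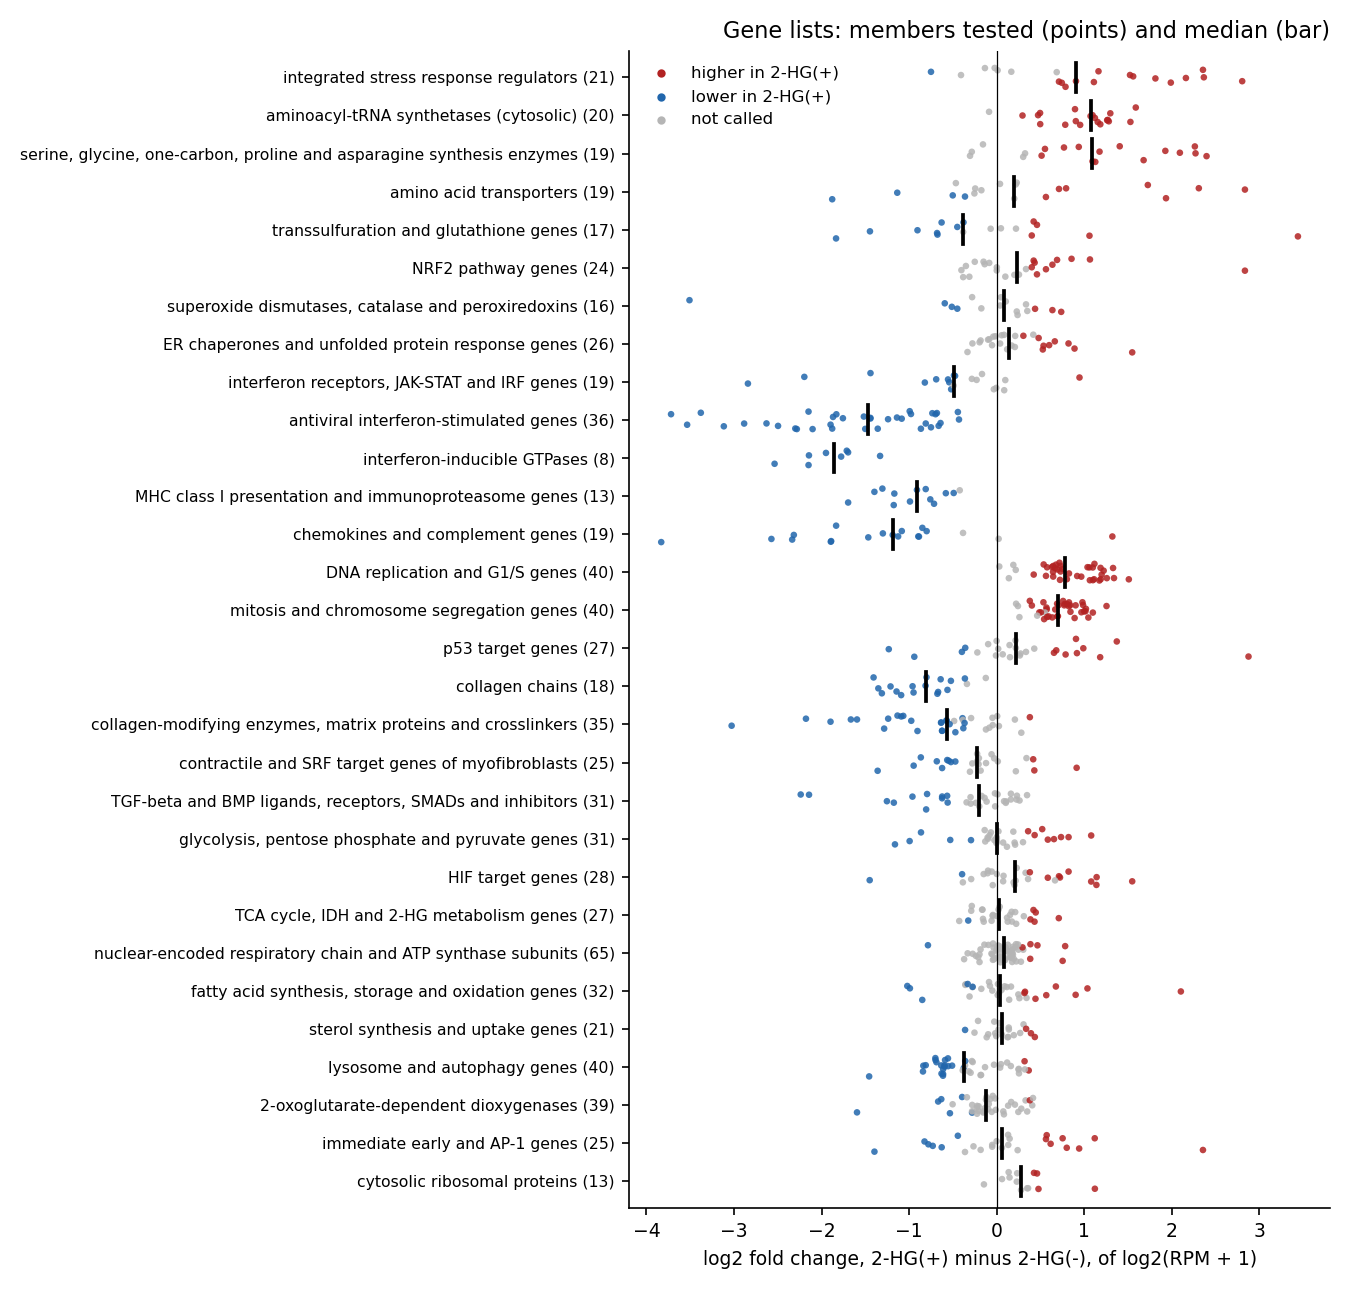
Log2 fold change in 2-HG(+) (horizontal axis) of the tested members of 30 gene lists (rows, number tested in parentheses), with red points called higher, blue points lower and grey points not called, and a black bar at the median. The amino acid and cell cycle lists lie to the right of 0, with medians from 0.70 to 1.09 apart from the transporters and glutathione genes, and the antiviral, GTPase, MHC class I, chemokine and collagen lists to the left, with medians from -1.86 to -0.81.

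The extracellular matrix, the main product of fibroblasts, fell broadly. Of 28 collagen chains, 18 were tested and 16 were lower, against 16.7% of all genes, with 0 higher and a median of -0.81, and 10 were under 1 RPM. Col3a1, of the fibrillar collagen of elastic tissues, went from 453, 513 and 465 to 199, 171 and 189 RPM (log2FC -1.35, SE 0.10, limma adjusted p = 1.3e-05). Of the beaded-filament collagen VI, Col6a1 went from 1079.5, 888 and 1009 to 364, 455 and 539 RPM (log2FC -1.14, SE 0.15, limma adjusted p = 0.00036) and Col6a2 from 107, 94.7 and 100.4 to 31.1, 39.1 and 42.6 RPM (log2FC -1.41, SE 0.13, limma adjusted p = 5.2e-05). Of the 2 chains of type I collagen, whose changes were not tested against each other, Col1a2 had 9386, 8763 and 7811 RPM in 2-HG(-) and 4814, 4787 and 5148 RPM in 2-HG(+), with a clear gap (log2FC -0.81, SE 0.12, limma adjusted p = 0.001). Col1a1 had 8339, 8870.3 and 8663 RPM in 2-HG(-) and 7952, 6782 and 5859 RPM in 2-HG(+), which did not pass the threshold although the groups do not overlap (log2FC -0.34, 95% confidence interval -0.66 to -0.02, limma adjusted p = 0.095).

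Of 35 tested matrix proteins and collagen-processing genes, 23 were lower and 1 was higher (median -0.57), against 16.7% and 16.1% of all genes. The higher one, the collagen prolyl hydroxylase P4ha2 (log2FC 0.38, limma adjusted p = 0.021), was not called without 2-HG(-)_2, 2-HG(-)_3, 2-HG(+)_2 or 2-HG(+)_3 (log2FC between 0.33 and 0.38). Periostin (Postn), a matricellular protein of injured tissue, on chromosome 3 from 54361109 to 54391037, fell from 221, 243 and 233 to 23.4, 27.7 and 32.5 RPM, 8.35 times lower (log2FC -3.03, SE 0.12, limma adjusted p = 6e-07). The small leucine-rich proteoglycans Ogn, Bgn and Dcn fell, while Lum, Fmod and Prelp of the same family were under 1 RPM. Ogn went from 1696 ± 33.0 to 374 ± 16.7 RPM (SD, n = 3 each) (log2FC -2.18, SE 0.09, limma adjusted p = 6e-07). Bgn and Dcn, which bind collagen and growth factors, had log2FC -1.29 and -1.24 (limma adjusted p = 8.4e-05 and 3.4e-05). Thrombospondin 1 (Thbs1), which activates latent TGF-beta, went from 639, 583 and 612 to 137, 176 and 181 RPM (log2FC -1.90, SE 0.12, limma adjusted p = 5.8e-06). P4ha1, a relative of P4ha2, was not called (log2FC -0.05, 95% confidence interval -0.28 to 0.19, limma adjusted p = 0.77). The third of these 2-oxoglutarate-dependent enzymes, P4ha3, fell from 43.4, 43.7 and 42.1 to 11.8, 14.1 and 15.0 RPM (log2FC -1.60, SE 0.12, limma adjusted p = 1.9e-05). Fibronectin (Fn1) stayed out of this pattern, with 1562, 1417 and 1442 RPM in 2-HG(-) and 1309.7, 1348 and 1519.7 RPM in 2-HG(+) (log2FC -0.08, 95% confidence interval -0.32 to 0.15, limma adjusted p = 0.57).

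Part of the genes for growth factors that act on the matrix fell. Of 31 tested TGF-beta and BMP ligands, receptors, SMADs and inhibitors, 11 were lower, against 16.7% of all genes, 20 were not called and 0 were higher (median -0.20), and 2 were higher without 2-HG(+)_2. Bmp4, a secreted morphogen, had 38.4, 29.7 and 35.5 RPM in 2-HG(-) and 5.82, 6.43 and 7.32 RPM in 2-HG(+) (log2FC -2.24, SE 0.14, limma adjusted p = 5.9e-06). Ltbp2, a latent TGF-beta binding relative, had 147, 141 and 133 RPM in 2-HG(-) and 40.9, 17.9 and 40.1 RPM in 2-HG(+), with 2-HG(+)_2 lowest (log2FC -2.14, SE 0.26, limma adjusted p = 0.00029). Of the receptors, Tgfbr3 and Tgfbr2 fell with log2FC -0.96 and -0.57 (limma adjusted p = 0.00011 and 0.0011), and Id3, a direct BMP target, went from 462, 556 and 530.0 to 243, 223 and 217 RPM (log2FC -1.17, SE 0.10, limma adjusted p = 3.9e-05). The PDGF receptors, which drive fibroblast growth and mark mesenchymal cells, both fell. Pdgfrb had 309.8, 296 and 316 RPM in 2-HG(-) and 105, 110.4 and 103 RPM in 2-HG(+) (log2FC -1.53, SE 0.09, limma adjusted p = 3.3e-06). Pdgfra had 91.3, 65.0 and 85.2 RPM in 2-HG(-) and 22.1, 31.6 and 38.2 RPM in 2-HG(+) (log2FC -1.38, SE 0.20, limma adjusted p = 0.00068). Vimentin (Vim), the mesenchymal intermediate filament, was not called (log2FC -0.33, limma adjusted p = 0.12).

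Contractile genes fell in part. Of 25 tested, 9 were lower and 3 higher (median -0.22), against 16.7% and 16.1% of all genes. Smooth muscle actin (Acta2), the marker of myofibroblasts, went from 375, 368 and 401 to 191, 206 and 194 RPM (log2FC -0.95, SE 0.09, limma adjusted p = 6e-05), and the myosin light chain kinase Mylk from 10.1 ± 0.739 to 3.33 ± 0.257 RPM (SD, n = 3 each) (log2FC -1.36, SE 0.13, limma adjusted p = 8.1e-05). Ankrd1, a target of YAP and of mechanical load, rose from 53.3, 67.0 and 58.6 to 94.7, 118 and 128 RPM (log2FC 0.91, SE 0.14, limma adjusted p = 0.00086).

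**Figure D5:**
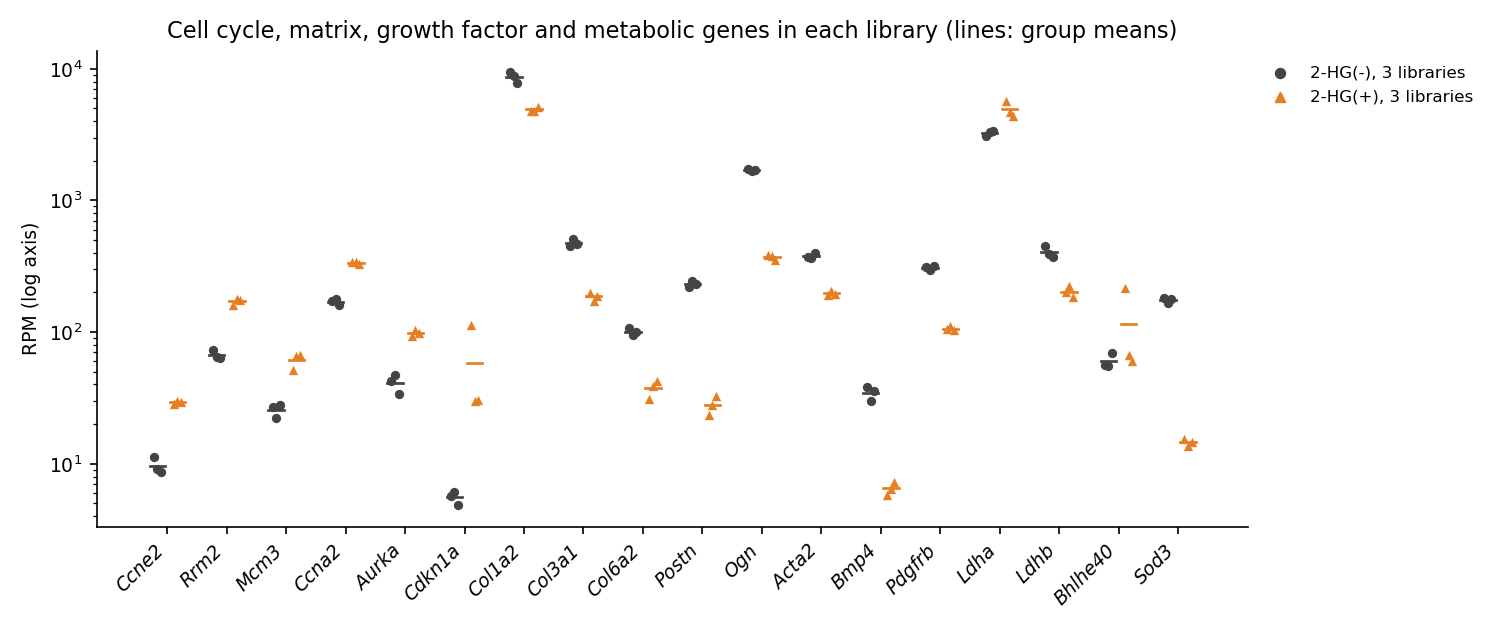
RPM (vertical log axis) of 18 cell cycle, matrix, growth factor and metabolic genes in each 2-HG(-) library (grey circles) and each 2-HG(+) library (orange triangles), with short lines for the group means. 2-HG(+)_1 stands apart in Cdkn1a (113 RPM) and Bhlhe40 (216 RPM), and the groups overlap in Bhlhe40 alone.

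Energy metabolism did not move as a list. Of 31 tested glycolysis, pentose phosphate and pyruvate genes, 8 were higher and 5 lower, against 16.1% and 16.7% of all genes, and the median was 0.00. Both counts were smaller without 2-HG(+)_2, at 5 and 3, and the lower count was also 3 without 2-HG(-)_1, 2-HG(-)_3 or 2-HG(+)_3. Hexokinase 2 (Hk2), which traps glucose in the cell, went from 40.2, 29.5 and 35.5 to 96.3, 64.9 and 66.5 RPM (log2FC 1.08, SE 0.17, limma adjusted p = 0.0012), and the glucose transporter Slc2a1 rose with a log2FC of 0.82, limma adjusted p = 0.0012. At the lactate step the subunits parted. Ldha, which favours lactate, rose from 3068, 3322 and 3379 to 5684, 4682 and 4358 RPM (log2FC 0.58, SE 0.13, limma adjusted p = 0.0076), and Ldhb fell from 454, 393 and 372 to 203, 222 and 184 RPM (log2FC -0.99, SE 0.11, limma adjusted p = 0.00017). Without a filter on low values the call of Ldha was lost (limma adjusted p = 0.061). The lactate exporter MCT1 (Slc16a1) rose (log2FC 0.73, SE 0.13, limma adjusted p = 0.0027), Pdk2, a kinase that closes pyruvate dehydrogenase, fell (log2FC -1.16, SE 0.12, limma adjusted p = 0.0001), and pyruvate kinase (Pkm) was not called (log2FC -0.13, 95% confidence interval -0.38 to 0.12, limma adjusted p = 0.4).

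HIF target genes were examined because the prolyl hydroxylases that act on HIF1α use 2-oxoglutarate. Of 28 tested, 9 were higher and 2 lower, against 16.1% and 16.7% of all genes, and the median was 0.21. Without 2-HG(+)_1 the median was 0.08 and 3 were lower, and without any one of 2-HG(-)_1, 2-HG(-)_3, 2-HG(+)_2 and 2-HG(+)_3 there was 1 lower. The mean level of the list, in log2(RPM + 1), was 6.92 in 2-HG(+)_1, 6.60 and 6.65 in the other 2-HG(+) libraries, and 6.40 to 6.50 in 2-HG(-). Bhlhe40, a hypoxia- and stress-induced repressor, had 55.9, 55.8 and 69.5 RPM in 2-HG(-) and 216, 67.6 and 60.0 RPM in 2-HG(+), and its log2FC of 0.67 (limma adjusted p = 0.23) was 0.08 without 2-HG(+)_1. Other members rose in all 3 libraries. The ER oxidoreductase Ero1l had 161, 137 and 178 RPM in 2-HG(-) and 507, 426 and 457 RPM in 2-HG(+) (log2FC 1.55, SE 0.12, limma adjusted p = 1.9e-05). Ndrg1, another gene induced by stress, had 91.5, 86.8 and 85.1 RPM in 2-HG(-) and 224, 179.6 and 184 RPM in 2-HG(+) (log2FC 1.14, SE 0.11, limma adjusted p = 6.8e-05). Car9, the carbonic anhydrase that is a common hypoxia marker, went the other way, from 2.89, 2.61 and 2.82 to 0.529, 0.361 and 0.261 RPM (log2FC -1.45, SE 0.15, limma adjusted p = 0.0001).

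Genes of the TCA cycle and of 2-HG metabolism did not shift as a list, and their share higher was near that of all genes. Of 27 tested TCA cycle, IDH and 2-HG metabolism genes, 5 were higher and 1 lower (median 0.03), against 16.1% and 16.7% of all genes. Without 2-HG(-)_3 or 2-HG(+)_2, 3 were higher. Idh3a, a subunit of the NAD-dependent enzyme, went from 108, 129 and 124 to 215, 208 and 171 RPM (log2FC 0.71, SE 0.12, limma adjusted p = 0.0016). Cytosolic Idh1 fell from 193, 178 and 208 to 138, 159.8 and 163 RPM (log2FC -0.33, SE 0.10, limma adjusted p = 0.039) and mitochondrial Idh2 rose from 186, 184 and 160.1 to 217, 254 and 244 RPM (log2FC 0.43, SE 0.10, limma adjusted p = 0.011). The call of Idh1, the list's only fall, was lost without 2-HG(-)_1 (log2FC -0.32), 2-HG(-)_3 (-0.27), 2-HG(+)_1 (-0.25) or 2-HG(+)_2 (-0.35), with limma adjusted p between 0.076 and 0.15. That of Idh2 was lost without 2-HG(-)_3 (log2FC 0.36, limma adjusted p = 0.055) or 2-HG(+)_2 (log2FC 0.38, limma adjusted p = 0.052). D2hgdh, which converts (R)-2-HG back to 2-oxoglutarate, had 16.1, 16.7 and 16.5 RPM in 2-HG(-) and 15.3, 13.1 and 15.9 RPM in 2-HG(+) and did not pass the threshold (log2FC -0.15, 95% confidence interval -0.43 to 0.13, limma adjusted p = 0.39).

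Of 39 tested 2-oxoglutarate-dependent dioxygenases, 6 were lower and 1 was higher (median -0.12), so that the share lower was near the 16.7% of all genes. The lower count was 3 without 2-HG(-)_1, 2-HG(-)_3 or 2-HG(+)_2. The higher count was 4 without 2-HG(+)_1 and 0 without 2-HG(-)_3, 2-HG(+)_2 or 2-HG(+)_3. Among the lower members, the methylcytosine dioxygenase Tet2 went from 39.1, 51.5 and 47.3 to 32.6, 24.3 and 28.8 RPM (log2FC -0.67, SE 0.14, limma adjusted p = 0.0066) and the collagen lysyl hydroxylase Plod1 from 180.0, 174 and 178 to 120.4, 90.2 and 137 RPM (log2FC -0.63, SE 0.14, limma adjusted p = 0.0078). An unmoderated per-gene test lost both calls. Of 65 tested respiratory chain and ATP synthase subunits, 6 were higher and 1 lower (median 0.08), below the shares of all genes. The higher count was 3 without 2-HG(-)_3 or 2-HG(+)_2. Of 13 tested ribosomal proteins, 4 were higher and 0 lower (median 0.28), against 16.1% and 16.7% of all genes. However, 51 of the 66 on this list were not in the table.

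Fatty acid genes did not shift as a list, and their share lower was near that of all genes. Of 32 tested fatty acid genes, 8 were higher and 5 lower (median 0.04), against 16.1% and 16.7%, and the lower count was 3 without 2-HG(-)_1 or 2-HG(+)_2. Angptl4, a secreted inhibitor of lipoprotein lipase and a PPAR target, went from 13.9, 18.8 and 16.3 to 60.0, 77.9 and 83.4 RPM (log2FC 2.10, SE 0.15, limma adjusted p = 1.4e-05). Dgat2, which makes triglycerides, rose with a log2FC of 1.04 (limma adjusted p = 0.00058), and Acadm, the dehydrogenase for medium-chain fatty acids, fell from 186, 153 and 177 to 82.0, 96.6 and 107 RPM (log2FC -0.85, SE 0.12, limma adjusted p = 0.00076). Of 21 tested sterol genes, 3 were higher and 1 lower (median 0.06), against 16.1% and 16.7% of all genes. The higher count was 0 without 2-HG(+)_2 and 1 without 2-HG(-)_3, and the lower count was 0 without 2-HG(-)_1, 2-HG(-)_3 or 2-HG(+)_1.

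Genes against oxidative stress did not move as one. Of 24 tested NRF2 pathway genes, 10 were higher and 0 lower (median 0.23), against 16.1% and 16.7% of all genes. Without 2-HG(-)_3, 6 were higher, and without 2-HG(-)_2 or 2-HG(+)_1, 1 was lower, with a median of 0.13 without 2-HG(-)_2. Thioredoxin reductase (Txnrd1) and the exporter Abcc4 rose with log2FC 0.64 and 1.06 (limma adjusted p = 0.0016 and 9.4e-05). Nqo1 and Hmox1, widely used readouts of NRF2, were not called (log2FC 0.10 and 0.20, limma adjusted p = 0.58 and 0.26). Of 16 tested superoxide dismutases, catalase and peroxiredoxins, 3 were higher and 4 lower (median 0.08), against 16.1% and 16.7% of all genes. Extracellular superoxide dismutase (Sod3), on chromosome 5 from 52363791 to 52371418, fell from 183, 166 and 178 to 15.4, 13.6 and 14.5 RPM, 12.1 times lower and with little spread in either group (log2FC -3.51, SE 0.10, limma adjusted p = 2.2e-07). Mitochondrial Sod2 fell less (log2FC -0.59, SE 0.10, limma adjusted p = 0.0016).

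In the secretory and degradative systems, 9 of 26 tested ER chaperone and unfolded protein response genes were higher and 0 lower (median 0.14), against 16.1% and 16.7% of all genes. The chaperone BiP (Hspa5) had 1257, 1451 and 897 RPM in 2-HG(-) and 1879.6, 972 and 2136 RPM in 2-HG(+), a wide spread in both groups (log2FC 0.42, limma adjusted p = 0.28). The factor Xbp1 rose from 329, 397 and 403 to 582, 602 and 524 RPM (log2FC 0.60, SE 0.11, limma adjusted p = 0.0028) and the ubiquitin-like Herpud1, of ER-associated degradation, from 67.0, 63.5 and 73.5 to 111, 134 and 136 RPM (log2FC 0.89, SE 0.11, limma adjusted p = 0.00034). Of 40 tested lysosome and autophagy genes, 20 were lower and 2 higher (median -0.37), against the same shares. The lower count was 13 without 2-HG(-)_3. The higher count was 0 without 2-HG(-)_1 or 2-HG(+)_2 and 1 without 2-HG(-)_2, 2-HG(-)_3 or 2-HG(+)_3. The membrane protein Lamp2 went from 1033, 885 and 1034 to 512, 559 and 573 RPM (log2FC -0.84, SE 0.10, limma adjusted p = 0.00029), the protective protein Ctsa from 476, 409 and 440.2 to 234, 247 and 273 RPM (log2FC -0.81, SE 0.10, limma adjusted p = 0.00032), and Tfe3, a factor that switches on lysosomal genes, from 31.6, 26.2 and 28.8 to 16.3, 17.8 and 20.8 RPM (log2FC -0.63, SE 0.13, limma adjusted p = 0.0055). Letters of the CLEAR element (TCACGTGA) stood in 5 of 29 lysosome promoters with a window (17.2%) against 2.38% of all tested genes. Of all genes called lower 2.82% held these letters, of those called higher 1.56%, and of those not called 2.47%.

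Immediate early genes split between fallers and risers. Of 25 tested, 8 were higher and 6 lower (median 0.06), against 16.1% and 16.7% of all genes, and 3 were lower without 2-HG(+)_2. Fos, the serum-induced AP-1 component, went from 14.0, 16.9 and 14.7 to 5.88, 4.87 and 4.71 RPM (log2FC -1.40, SE 0.14, limma adjusted p = 9.4e-05), and Egr1 from 774, 876 and 673 to 406, 444 and 454 RPM (log2FC -0.82, SE 0.11, limma adjusted p = 0.00061). Jun and Fosl1, other AP-1 components, rose with log2FC 0.62 and 0.94 (limma adjusted p = 0.002 and 0.0015). Myc, which drives growth and ribosome production, went from 77.0, 77.9 and 78.5 to 113, 147 and 152 RPM (log2FC 0.80, SE 0.12, limma adjusted p = 0.001).

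Some of the largest changes belonged to genes not yet described. The secreted carbonic anhydrase Car6, on chromosome 4 from 150187015 to 150201332, rose from 1.14, 1.60 and 0.961 to 55.7, 71.2 and 67.6 RPM, the largest rise by log2FC among the tested genes (log2FC 4.88, SE 0.16, limma adjusted p = 2.4e-07). Stbd1, which brings glycogen to the lysosome, went from 1.20, 1.87 and 1.68 to 24.5, 21.9 and 20.2 RPM (log2FC 3.17, SE 0.15, limma adjusted p = 1.6e-06). The phosphate importer Slc20a1 rose from 40.6 ± 4.05 to 173 ± 11.8 RPM (SD, n = 3 each) (log2FC 2.06, SE 0.11, limma adjusted p = 2.1e-06), and the neuronal microtubule regulator Stmn4 from 2.80 ± 0.305 to 16.0 ± 0.604 RPM (SD, n = 3 each) (log2FC 2.17, SE 0.13, limma adjusted p = 4.8e-06). Paqr3, a Golgi membrane protein, rose from 6.43 ± 1.06 to 32.1 ± 4.01 RPM (SD, n = 3 each) (log2FC 2.16, SE 0.15, limma adjusted p = 1.1e-05). Tmem74, a lysosomal membrane protein linked to autophagy, and P2rx3, an ATP-gated channel of sensory neurons, rose from low levels, with log2FC 2.16 and 2.00 (limma adjusted p = 2e-05 and 2.7e-05). The mitochondrial chaperone Hspa9 rose from 547 ± 49.1 to 1379 ± 136 RPM (SD, n = 3 each) (log2FC 1.33, SE 0.11, limma adjusted p = 3.4e-05). The initiation factor subunit Eif3c had 590.3, 904 and 732 RPM in 2-HG(-) and 2328, 1644 and 1381 RPM in 2-HG(+) (log2FC 1.25, SE 0.20, limma adjusted p = 0.0014), a call that an unmoderated per-gene test lost.

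Further large falls included secreted proteins, enzymes and receptors. The precursor of angiotensin (Agt) went from 19.3, 11.9 and 11.6 to 0.463, 0.842 and 0.653 RPM (log2FC -3.18, SE 0.20, limma adjusted p = 6.2e-06). Alcohol dehydrogenase 1 (Adh1) went from 10.3, 8.49 and 11.9 to 0.198, 0.481 and 0.392 RPM (log2FC -3.04, SE 0.17, limma adjusted p = 2.6e-06). The interleukin-1 receptor antagonist Il1rn went from 443, 347 and 433 to 43.2, 52.7 and 62.5 RPM (log2FC -2.93, SE 0.15, limma adjusted p = 1.8e-06). Each of these genes kept a gap between the groups that was wide against the spread within them. The secreted factor Ndnf, first described in neurons, and the integrin-related Itgbl1 fell 15.8-fold and 17.4-fold in mean RPM (log2FC -3.53 and -3.19, limma adjusted p = 6e-06 and 3e-06). The guidance receptor Robo2 went from 12.8, 15.9 and 12.4 to 0.926, 1.08 and 1.63 RPM (log2FC -2.74, SE 0.17, limma adjusted p = 5e-06), and Omd, a proteoglycan of bone, from 44.3, 56.5 and 55.2 to 5.68, 4.57 and 6.86 RPM (log2FC -2.99, SE 0.16, limma adjusted p = 2.4e-06). The kininogens Kng1 and Kng2, precursors of bradykinin, and the protease inhibitor Serpina3g, counted above with the chemokine and complement list, fell with log2FC -2.71, -2.68 and -3.83 (limma adjusted p = 1.2e-05, 0.00014 and 5.5e-07), and near copies of these genes make their single counts uncertain. Trim30a, of a family of antiviral ubiquitin ligases and counted above with the antiviral genes, fell from 30.7 ± 1.74 to 4.12 ± 0.338 RPM (SD, n = 3 each) (log2FC -2.63, SE 0.13, limma adjusted p = 1.6e-06). Clec2d, a ligand of natural killer cell receptors, stood at 68.9, 134 and 65.0 RPM in 2-HG(-) and 8.86, 7.76 and 10.00 RPM in 2-HG(+), with 2-HG(-)_2 highest (log2FC -3.12, SE 0.25, limma adjusted p = 2.1e-05). The membrane protein Itm2b fell from 4251 ± 299 to 1789 ± 13.5 RPM (SD, n = 3 each) (log2FC -1.25, SE 0.11, limma adjusted p = 3.4e-05). The matrix glycoprotein Sparc, counted above with the matrix proteins, had 8929, 11434 and 11512 RPM in 2-HG(-) and 8604, 6776 and 6159 RPM in 2-HG(+) (log2FC -0.57, SE 0.17, limma adjusted p = 0.027). Its call was lost without 2-HG(-)_2 (log2FC -0.51), 2-HG(-)_3 (-0.51), 2-HG(+)_2 (-0.54) or 2-HG(+)_3 (-0.47), with limma adjusted p between 0.065 and 0.11, and under quantile normalization, where it was -0.17.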

How the data were processed

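Total RNA was sequenced with the Ion AmpliSeq Transcriptome Mouse kit on an Ion Proton. Per the study's methods, the authors mapped reads with TMAP to the AmpliSeq mouse reference, obtained values for each gene from the plug-in AmpliSeqRNA, and deposited them as RPM, scaled to the library total. The genome build is not given in the sources used here. All RPM values were whole multiples of 1 read (100%, within 0.05 of a read), so read counts could be recovered. Of 23930 table entries, 27 gene names had been turned into dates and were not used by name, and 2 entries shared a name.

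Groups came from the sample labels. The test was limma 3.58.1 (R 4.3.3) with a mean-variance trend on log2(RPM + 1) for the 10384 genes whose mean reached 1 RPM, Benjamini-Hochberg adjusted p below 0.05 and no fold limit. Reads were simulated with the same library sizes and a dispersion set at 0.02, which is not an estimate from these libraries. Of genes changed by 1 on the log2 scale 88 of 93 were called, and of those changed by 1.5, 107 of 107. Of 10141 unchanged genes, 7 were called. The changed genes were drawn only from genes with more reads, so this recovery does not extend to genes at low levels. They were also a far smaller share of all genes than the genes called here. Alternatives were edgeR 4.0.16 and DESeq2 1.42.0 on the recovered reads, other scalings, filters and added values, a block on the replicate number, an unmoderated test and leaving out each library. The genes named are the 20 largest rises and the 20 largest falls among called genes whose higher group averaged 10 RPM or more, with non-overlapping groups, the 5 largest differences in RPM each way, and members of the gene lists chosen for their roles. The libraries of each group follow from the labels alone, but the choice to describe this comparison, the gene lists and the named genes was made with earlier results of these data known, so list counts are descriptions. Gene positions are from the GRCm38 annotation and promoter windows from RefSeq on GRCm38.p6, matched by symbol for 8279 of the tested genes. Authors' comparisons and the table of the IDH2 mutant cells were not used.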

Additional observations from a re-analysis of the deposited data

How the results depend on the processing

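The main test gave 1668 higher and 1737 lower genes. An unmoderated per-gene test gave 1098 higher and 1139 lower, the only alternative that moved either count by more than 1.5-fold. edgeR on the recovered reads gave 1794 and 1752, and DESeq2 1901 and 1765. Leaving out single libraries gave between 1146 and 1745 higher and between 1176 and 1580 lower genes. Replicate numbers were no sign of pairing, since the deviations of same-numbered libraries correlated at -0.46, -0.16 and 0.06, and a block on the replicate number gave 1217 higher and 1286 lower genes. The median change of all genes stayed between -0.042 and 0.015 under every alternative.

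Of 187 genes named in the text, 165 were called and 153 of these were called under every alternative that tested them, while 0 reversed. The 12 that lost their call under at least 1 alternative were Idh1, Idh2, Ifit2, Ifnar1, Ldha, Mb21d1, Plod1, Tet2, Eif3c, P4ha2, Pparg and Sparc. Fibronectin (Fn1), not called, changed sign to 0.01 under quantile normalization, and P4ha1, not called, ranged from -0.10 to 0.02 when single libraries were left out, changing sign without 2-HG(-)_2 or 2-HG(+)_3. The cause of these shifts was not tested. RPM is a share of the library, so a change in total RNA per cell could not be seen, and genes close to 3 reads per library were not measured with useful precision.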

Other observations

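Some further groups of genes are given here. They were picked by the start of their symbols after the values had been seen, so the counts describe these libraries only. Over all tested genes 16.1% were higher and 16.7% lower. Of 19 tested clustered histone genes, 17 were higher and 1 was lower in 2-HG(+) (median log2 fold change of RPM + 1, log2FC, 0.99), with Hist1h1a, a linker histone, rising from 39.4 ± 7.57 to 117 ± 19.5 RPM (SD, n = 3 each) (log2FC 1.55, SE 0.17, limma adjusted p = 0.00013). The lower member was Hist2h2be (log2FC -0.75, SE 0.17, limma adjusted p = 0.0075), and reads of near-identical histone copies may be shared between genes. Of 32 genes of ribosome biogenesis, recognized by symbols that start with Utp, Rrp, Nop or Nol, 19 were higher and 0 lower (median 0.53). Nop56, a core protein of the box C/D particles that guide methylation of ribosomal RNA, went from 121, 151 and 154 to 288, 350.4 and 335 RPM (log2FC 1.19, SE 0.12, limma adjusted p = 0.0001). Of 40 genes with symbols starting with Eif2, Eif3, Eif4 or Eif5, some of which are also among the stress response regulators above, 16 were higher, 2 lower and 22 not called (median 0.26). Eif2b3, a subunit of the exchange factor that reloads eIF2, went from 20.8, 14.6 and 15.8 to 31.6, 40.0 and 51.9 RPM (log2FC 1.21, SE 0.19, limma adjusted p = 0.0012).

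Of 6 tested angiopoietins and angiopoietin-like genes, 2 were higher and 3 lower. Angpt1, which stabilizes vessels, fell from 74.0 ± 7.36 to 11.4 ± 1.44 RPM (SD, n = 3 each) (log2FC -2.60, SE 0.13, limma adjusted p = 1.7e-06), against the rise of Angptl4, described with the fatty acid genes (log2FC 2.10, limma adjusted p = 1.4e-05). Of 14 tested serpins, 7 were lower and 3 higher (median -0.59). Of 11 tested semaphorins, secreted or membrane-bound guidance factors, 6 were lower and 0 higher (median -0.40), with Sema5a at 37.9, 36.2 and 43.2 RPM in 2-HG(-) and 17.2, 18.3 and 20.5 RPM in 2-HG(+) (log2FC -1.03, SE 0.12, limma adjusted p = 0.00025). Of 3 insulin-like growth factor binding proteins, 2 were lower, among them Igfbp7, which fell from 247 ± 22.3 to 94.8 ± 11.1 RPM (SD, n = 3 each) (log2FC -1.38, SE 0.12, limma adjusted p = 3.2e-05).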
